A study of Mus musculus with 10 samples.

Results

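The structural genes of caveolae were followed in gastrocnemius muscle: the caveolins Cav1, Cav2 and Cav3, the cavins Cavin1, Cavin2, Cavin3 and Cavin4, and the accessory membrane-shaping genes Ehd2 and Pacsin3. These 9 genes were taken by symbol, out of 21098 genes in the count table, and all 9 were found in it. The list was drawn up with the difference between the treatment groups already known, so the differences of its members, and which of them pass a threshold in the fit over all genes, are given as a description that supports nothing. The muscles came from male wild-type (WT) C57BL/6J mice that received a high-fat diet (D12492i) from 9 weeks of age and had eaten it for 9 weeks, until diet-induced obesity, when treatment began. For 14 further weeks, the animals behind 5 libraries were given weekly subcutaneous doses of 10 mg/kg of RES-010, an LNA mixmer antisense oligonucleotide against miR-22 (here ASO), and those behind the other 5 (CTRL) received saline vehicle in equal volume. The study's design text gives the age at the end as 30 weeks, whereas the stated times add up to 32 weeks, and the sources used here do not explain the difference. The high-fat diet was therefore common to both groups, and there was no lean or untreated group. In the body weights the study lists for the obese mice, most control mice were lighter at the first weighing than every treated mouse. The part of body weight in the differences between groups was not tested. The labels number the libraries 1 to 5 within each group and do not say in words that each is a separate animal, so p-values measure the spread between these libraries.

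Caveolae are flask-shaped pits of the plasma membrane. Caveolins insert into the inner leaflet and oligomerize, cavins assemble a coat around them, and EHD2 and PACSIN proteins act at the neck. CAV1 and CAV2 are typical of endothelial cells, adipocytes, fibroblasts and smooth muscle, whereas CAV3 is the caveolin of muscle fibers, where caveolae buffer membrane tension and take part in forming the transverse tubules. Mutations in CAV3 cause rippling muscle disease and a limb-girdle dystrophy, and loss of CAVIN1 causes lipodystrophy with myopathy.

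The target of the oligonucleotide is shown because the members were searched for its recognition site. The mature sequence is from RefSeq (GRCm38.p6), with the seed, bases 2 to 8, in capitals. The 7 bases complementary to the seed, GGCAGCT, were sought on the transcribed strand of the 3′UTR of each canonical GENCODE M39 transcript, and 3 of the matches are shown as 29 bases read from GRCm39 with the match in capitals. They are the only match of Cav1, which lies inside a counted stretch of its 3′UTR, the only match of Cav3, which lies inside its counted stretch, and that of Cavin4, which lies outside it.
mmu-miR-22-3p: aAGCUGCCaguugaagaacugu
Cav1, chr6:17340114-17340142, plus strand: tgcatgatgccGGCAGCTttcctaaaaac
Cav3, chr6:112449682-112449710, plus strand: gttccttaagaGGCAGCTagcgcaaggct
Cavin4, chr4:48672899-48672927, plus strand: tgccttttcgtGGCAGCTcttggccaatg
A match was present in 4 of the 9 members, since Cavin1 held 3 more, all outside its counted stretch. Cav2, Cavin2, Cavin3, Ehd2 and Pacsin3 had none in this window. Of 7771 tested genes with such a 3′UTR, 17.8% held a match. The members with a match had log2 fold changes of −2.03 for Cav1, 1.22 for Cav3, 0.13 for Cavin1 and −0.01 for Cavin4. They were listed with the contrast known, so nothing is read from these directions. A match is a string of letters and was not tested as a binding site.

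The values are read pairs counted on segments of at most 500 bp taken from transcript 3′ ends, summed per gene and given as CPM, the count normalized to the TMM-scaled library size. Library totals lay between 1606909 and 2116720 counts in CTRL and between 2239186 and 2632560 with the ASO, so every treated library was the deeper. Of the listed skeletal muscle markers Acta1 was abundant in every library, whereas Mylpf, Tnnt3 and Mb had 0 counts in all 10, and these 3 have at most 10 bp outside overlaps between segments, so a listed 0 says little about the expression of a gene here. CTRL replicate 3 stood apart for the members. It had the highest CTRL level of 6 of them and the lowest of the other 3, which are the muscle-type genes Cav3, Cavin4 and Pacsin3, and values that rest on it are given with and without it. Of the 9 members, 8 passed edgeR's filter on low counts. Cavin3 did not, with 3 to 23 counts per library, so no fold change is given for it from the filtered fit.

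**Figure D1:**
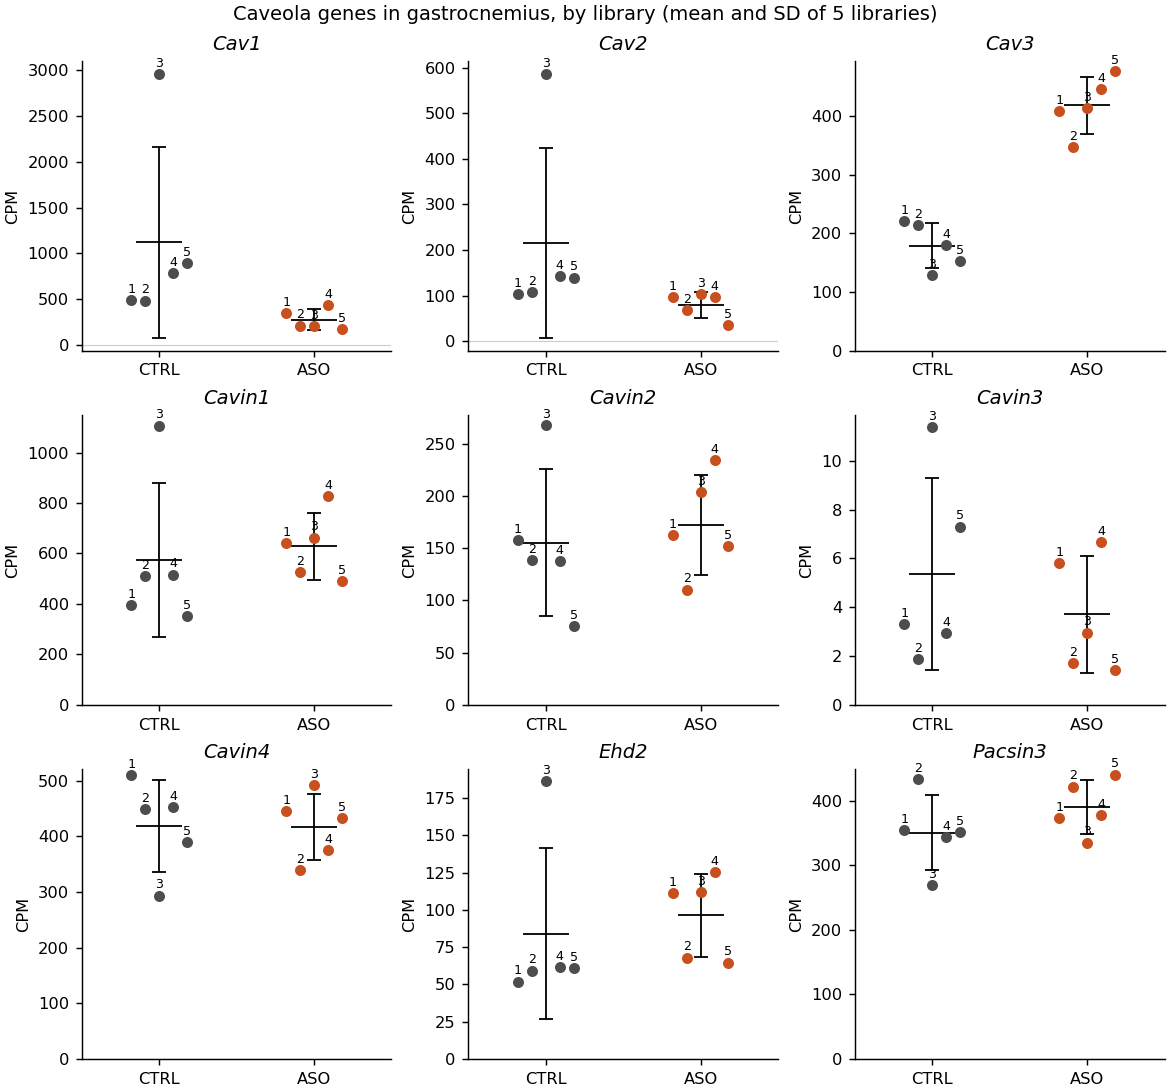
Each panel shows the level of 1 gene in CPM (vertical axis, starting at or below 0) in the 5 CTRL and the 5 anti-miR-22 ASO libraries, as points numbered by replicate, with the mean and SD as bars. Cav3 separates upward, from 179 to 418 CPM, Cav1 separates downward, and CTRL replicate 3 is the highest point of its group in 6 panels and the lowest in 3.

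Cav1 was lower and Cav3 higher with the anti-miR-22 ASO, Cav2 was lower with the groups barely apart, and the coat and neck genes overlapped between the groups. Among the 8 members that passed the filter, edgeR's quasi-likelihood test put 1 past an adjusted p of 0.05 in the higher direction (Cav3) and 2 in the lower (Cav1 and Cav2), and 5 were not past it. Over all 7813 genes tested, 11.8% were higher, 17.4% were lower and 29.2% were called in either direction. The groups did not overlap for 3 of the 9 members, and for 21.4% of all genes tested, of which 7.97% with the ASO above and 13.4% with the ASO below. Because the contrast was known when the members were listed, nothing is read from these counts. The median log2 fold change of the members tested was 0.14, beside −0.03 over all genes.

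Cav3, the muscle-fiber caveolin, was at 220, 214, 129, 180 and 153 CPM in CTRL replicates 1 to 5 and at 408, 347, 414, 445 and 476 CPM with the ASO. The groups were far apart, the lowest treated library at 347 CPM and the highest control at 220. The means of 179 ± 38.9 CPM in CTRL and 418 ± 48.2 CPM in treated muscle (SD, n = 5 each) correspond to 1.22 ± 0.17 (SE) on the log2 scale. Its counted segment, chr6:112449440-112449833 on the plus strand of GRCm39, is its whole annotated 3′UTR of 394 bp and ends at the distal end of the gene. Leaving out CTRL replicate 3, in which it was lowest, gave 1.12, and leaving out any other library gave at most 1.31.

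The summed level of 10 skeletal muscle markers moved in the same direction as Cav3. It ran from 47998 to 94132 CPM in CTRL and from 98050 to 152637 CPM with the ASO, a log2 difference of 0.73 (two-sided exact permutation test over all 252 labellings, p = 0.0079, the smallest p they allow; adjusted p = 0.048 over 6 lists). Acta1, skeletal alpha-actin, was the highest of the list at a mean of 39783 CPM in CTRL and 59136 CPM with the ASO, and 5 of the 10 markers passed the filter on low counts. As a mean of log2(CPM + 1) over the markers, which weighs them equally, the difference was 0.39 and not past the threshold (adjusted p = 0.14, exact permutation test). The summed level also missed the threshold in 9 of the 10 comparisons that left out 1 library, at an adjusted p of 0.095 by the exact permutation test, the smallest that 4 libraries against 5 allow over 6 lists when only 1 list reaches it. Both Cav3 and the marker sum were lowest in CTRL replicate 3 and highest in ASO replicate 5, and the part of fiber RNA content in the level of Cav3 was not tested. In a bulk tissue, fewer cells of a type and less RNA per cell cannot be told apart.

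Cav1, the caveolin of endothelium and adipocytes, was at 488, 484, 2956, 789 and 891 CPM in CTRL and at 351, 213, 203, 435 and 172 CPM with the ASO. Every treated library lay below every control, although the gap between ASO replicate 4 and CTRL replicate 2 was small beside the range of CTRL. Means were 1121 ± 1041 CPM in CTRL and 275 ± 113 CPM in treated muscle (SD, n = 5 each), and the fitted log2 fold change was −2.03 ± 0.49 (SE). CTRL replicate 3 set much of this size. Without it the CTRL mean was 663 ± 209 CPM (SD, n = 4) and the fitted value −1.27 ± 0.29 (SE), and the groups still did not overlap.

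Cav2, which reaches the cell surface in complex with CAV1, was at 103, 108, 586, 142 and 140 CPM in CTRL and at 96.6, 68.0, 103, 96.4 and 36.3 CPM with the ASO. The highest treated library and the lowest control shared the value 103 to the whole number and were 102.77 and 102.81 CPM before rounding, so the lack of overlap is formal. Means were 216 ± 208 CPM in CTRL and 80.0 ± 27.9 CPM in treated muscle (SD, n = 5 each), or −1.43 ± 0.48 (SE) as a log2 fold change. Without CTRL replicate 3 it was −0.62 and no longer past the adjusted threshold, and the same held when each ASO library in turn was left out.

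Cav1 and Cav2 are also the only members with counts on more than 1 segment, and their lower level in treated muscle lay mostly upstream of the distal end. Along the last exon of Cav1, the segment nearest the end with more than a few counts, chr6:17340824-17341323 (128 bp before the distal end), was at 144, 172, 769, 223 and 188 CPM in CTRL and at 178, 97.7, 122, 209 and 92.0 CPM with the ASO. These values overlapped, with a CTRL mean 2.14-fold the ASO mean, or 1.30-fold without CTRL replicate 3. In the middle of the 3′UTR, chr6:17339929-17340428 (1023 bp before the end, the stretch with the heptamer match shown above) was at 236, 222, 1355, 365 and 401 CPM in CTRL and at 139, 91.3, 70.6, 175 and 68.8 CPM with the ASO. Here every treated library was below every control and the ratio of means was 4.74, or 2.81 without CTRL replicate 3.

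Farther upstream in Cav1 the ratio widened. The segment chr6:17338851-17339350, 2101 bp before the end, was at 79.2, 63.0, 638, 150 and 234 CPM in CTRL and at 26.1, 18.7, 8.04, 33.4 and 9.43 CPM with the ASO, a ratio of 12.2, or 6.88 without CTRL replicate 3. This segment covers 239 coding bp and 261 intronic bp of the canonical Cav1 transcript and overlaps an exon of another annotated gene, Gm68216, so its counts are uncertain in origin. A short stretch between them, chr6:17339454-17339518 at 1933 bp, lies just inside the 3′UTR and had a ratio of 11.3, or 6.67 without CTRL replicate 3. The segment at the very end had 18 counts over all libraries and shares 372 of its 500 bp with its neighbor.

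Cav2 showed the same order over its 3′UTR. At its distal end, chr6:17288615-17289114, the levels were 66.5, 76.0, 254, 73.8 and 52.2 CPM in CTRL and 84.5, 59.1, 97.7, 81.8 and 32.1 CPM with the ASO. Apart from CTRL replicate 3 the groups were intermingled, and without it the mean of CTRL was 0.945-fold that of the ASO. At chr6:17287100-17287437, 1677 bp before the end, they were 36.3, 31.7, 330, 67.3 and 87.1 CPM in CTRL and 10.6, 8.92, 4.65, 14.2 and 3.77 CPM with the ASO. The groups were far apart at this upstream stretch, with a ratio of 13.1, or 6.59 without CTRL replicate 3. A Cav2 segment 6431 bp before the end had 12 counts in all.

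**Figure D2:**
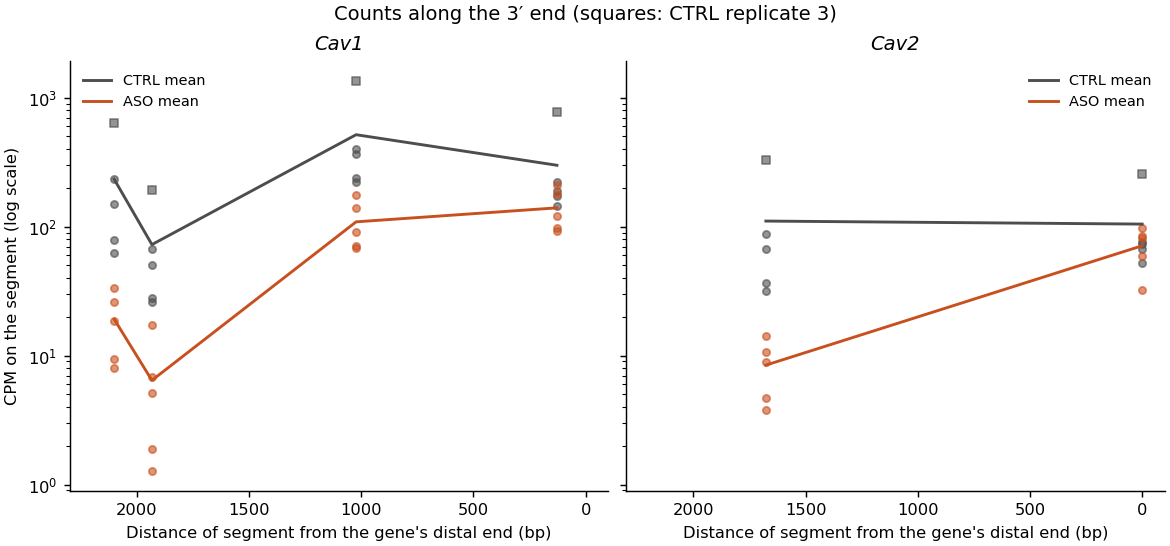
CPM on each segment with at least 100 counts (vertical axis, log scale) against its distance in bp from the distal end of the gene (horizontal axis, the end at the right), for Cav1 and Cav2. Points are libraries, squares mark CTRL replicate 3 and lines join the group means: near the end the groups overlap, and at 1000 bp or more every ASO point is below every CTRL point.

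The share of a gene's counts that fell at least 1000 bp before its distal end, among these and the counts within 500 bp of it, put the same values on 1 scale. For Cav1 it was 64.4% to 78.8% in CTRL and 39.4% to 54.1% with the ASO, with means of 71.8% ± 5.25 and 48.1% ± 5.65 (SD, n = 5 each). For Cav2 it was 29.4% to 62.7% in CTRL and 4.94% to 15.2% with the ASO, with means of 46.4% ± 14.0 and 11.5% ± 3.88. The shallowest of these shares rested on 77 counts, that of Cav2 in ASO replicate 5, 11.7% with a 95% Wilson interval of 6.27% to 20.7% that covers counting error only. Among all genes with at least 50 counts on each side, 934 of 1865, or 50.1%, had a lower upstream share in every treated library than in every control, and 0.804% a higher one, so the shift is common in these libraries and is not particular to the caveolins.

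Over all tested genes, 6565 segments within 500 bp of the distal end had a median log2 ratio of ASO to CTRL of 0.22, and 3336 segments at 2000 bp or more had −1.07. Beside these medians, the log2 ratios of Cav1 were −1.10 at 128 bp and −3.61 at 2101 bp, and that of Cav2 at 1677 bp was −3.71, where the 1176 segments from 1000 to below 2000 bp had a median of −0.71. The Cav1 and Cav2 segments with at least 100 counts were thus below the median segment at each distance. Without CTRL replicate 3 the medians of all genes were 0.24 within 500 bp, −0.68 from 1000 to below 2000 bp and −1.04 at 2000 bp or more, and these segments were again below them, with the distal Cav2 segment at 0.08 and between the quartiles of its class. In a fit on the segments within 500 bp of the distal end, chosen after seeing the data, the log2 fold changes were −1.35 for Cav1, −0.81 for Cav2 and 0.99 for Cav3. That fit also estimated the library scaling anew. Cav3, with 1 segment and the same counts in both fits, was at 1.22 in the main fit. On the main scaling the near-end counts gave log2 ratios of means of −1.09 for Cav1 and −0.56 for Cav2. In the near-end fit by edgeR's quasi-likelihood test, 1 member was higher (Cav3) and 0 were lower after adjustment, with Cav1 past an unadjusted p of 0.05, against 5.58% higher and 7.77% lower of 5984 genes.

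**Figure D3:**
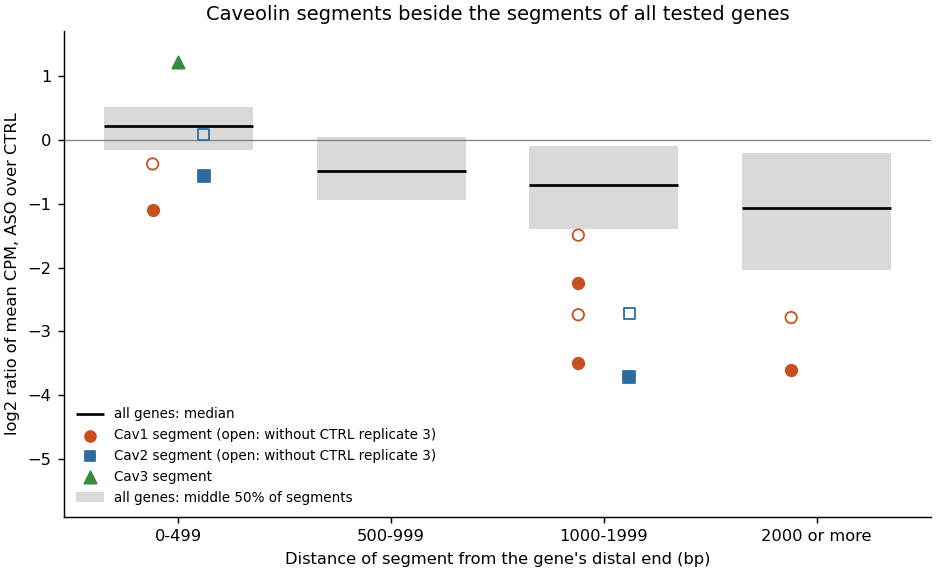
The log2 ratio of mean CPM, ASO over CTRL (vertical axis), by distance class of a segment from the distal end in bp (horizontal axis). Gray bars span the middle 50% and black lines the median of the segments of all tested genes, from 0.22 near the end to −1.07 at 2000 bp or more, circles are Cav1, squares Cav2 (open without CTRL replicate 3, while bars and lines use all libraries) and the triangle is the Cav3 segment, which is above the bar of its class.

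Whether a segment could mark a transcript end was read from its last 50 bases. The poly(A) signal hexamers AATAAA or ATTAAA, sought on the transcribed strand only, were present in 60.4% of 43892 distinct segments of the table, AATAAA alone in 48.7%. Of 15 counted member segments, 10 held either hexamer, among them the end segments of Cav1, Cav2, Cav3 and all 4 cavins. The 5 without were the Cav1 segments at 1023, 1933 and 2101 bp, the Cav2 segment at 1677 bp and the only counted segment of Pacsin3. The upstream caveolin stretches in which the groups separated were thus ones without either hexamer in this window.

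Cell types rich in CAV1 were checked by their markers, for which each library has a summed level. The adipocyte list (7 genes, 5 tested, Plin4 at 0, Adipoq the highest) summed to 8.96, 678, 4974, 899 and 416 CPM in CTRL and to 1267, 488, 655, 478 and 44.3 CPM with the ASO. CTRL replicate 3 was the highest of all libraries both for these markers and for Cav1, Cav2, Cavin1, Cavin2, Cavin3 and Ehd2, whereas CTRL replicate 1, with the lowest adipocyte sum, had 488 CPM of Cav1. The log2 difference between groups was −0.08 (adjusted p = 0.96, two-sided exact permutation test over 6 lists), and without CTRL replicate 3 it was 0.82. Endothelial markers (11 genes, 9 tested, none at 0, Cdh5 the highest) ran from 337 to 573 CPM in CTRL and from 332 to 720 CPM with the ASO, a log2 difference of 0.22 (adjusted p = 0.57, same test).

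The other cell types also overlapped between groups. Smooth muscle and pericyte markers (7 genes, 6 tested, none at 0, Rgs5 the highest) ran from 590 to 1220 CPM in CTRL and from 478 to 1567 CPM with the ASO. Fibroblast markers (6 genes, 4 tested, Dcn at 0, Lum the highest) ran from 247 to 489 and from 70.7 to 469 CPM, a log2 difference of −0.84. Only ASO replicate 4, at 469 CPM, reached into the fibroblast range of CTRL. Without that library the difference was −1.17 (adjusted p = 0.048, exact permutation test), past the threshold in this 1 of 10 comparisons that left out a library. Macrophage markers (5 genes, 3 tested, Adgre1 and Cd163 at 0, Csf1r the highest) ran from 55.5 to 342 and from 17.9 to 117 CPM, a log2 difference of −0.87. By the exact permutation test the adjusted p-values of these 3 lists were 0.62, 0.29 and 0.56, and the highest macrophage and fibroblast sums were again those of CTRL replicate 3. The part of these cell types in the caveolin levels was not tested beyond these values.

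**Figure D4:**
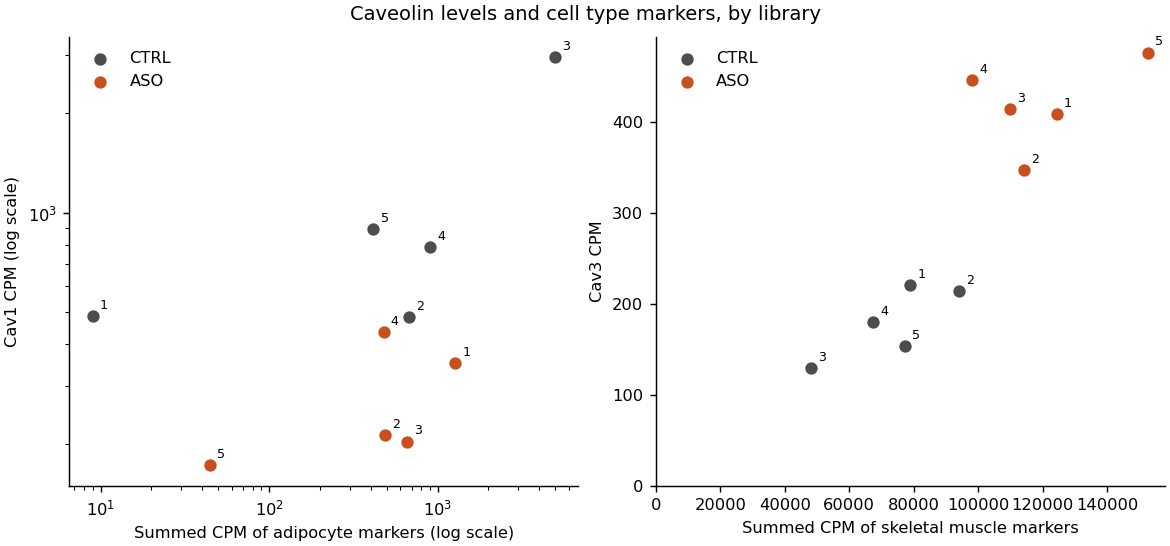
Left, Cav1 CPM against the summed CPM of adipocyte markers, both on log scales; right, Cav3 CPM against the summed CPM of skeletal muscle markers, both from 0; points are libraries numbered by replicate. CTRL replicate 3 is at the upper right of the left panel, with 4974 CPM of adipocyte markers, and at the lower left of the right panel, and at the right all ASO points exceed all CTRL points on both axes.

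Among the coat proteins, no member separated the groups. Cavin1, which is needed for caveolae to form, was at 395, 511, 1106, 516 and 351 CPM in CTRL and at 642, 526, 663, 827 and 489 CPM with the ASO, or 0.13 ± 0.29 (SE) as a log2 fold change. All treated libraries but replicate 5 exceeded the 4 lower controls, and CTRL replicate 3 exceeded every treated library. Without that library the log2 fold change was 0.50, and the groups still overlapped. With scaling by total counts, which shifted the median of all genes from −0.03 to −0.21, it was −0.07. Cavin2, which shapes and elongates caveolae, was at 158, 138, 268, 137 and 75.3 CPM in CTRL and at 163, 110, 203, 235 and 152 CPM with the ASO. The log2 fold change of Cavin2 was 0.15 ± 0.29 (SE), 0.44 without CTRL replicate 3 and −0.04 with scaling by total counts.

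Cavin3, which binds protein kinase C delta, had 7, 4, 23, 5 and 13 counts in CTRL and 12, 4, 7, 16 and 3 counts with the ASO. At this depth no difference was detectable, and its fitted log2 change without the filter was −0.49 ± 0.54 (SE). Cavin4, the muscle-restricted cavin also known as MURC, was at 510, 449, 294, 452 and 389 CPM in CTRL and at 445, 339, 492, 375 and 432 CPM with the ASO. The groups were fully intermingled, with means of 419 ± 82.0 and 417 ± 60.1 CPM (SD, n = 5 each), or −0.01 ± 0.17 (SE) on the log2 scale. Cav3 and Cavin4, both known from muscle fibers, thus stood differently between groups in the same libraries.

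Of the neck and membrane-bending genes, Ehd2, an ATPase that holds caveolae at the surface, was at 51.9, 59.2, 186, 61.4 and 60.7 CPM in CTRL and at 111, 68.0, 112, 125 and 64.6 CPM with the ASO. With all libraries the groups overlapped, at 0.20 ± 0.35 (SE) on the log2 scale. Without CTRL replicate 3 the remaining 4 controls, at 58.3 ± 4.36 CPM (SD, n = 4), all lay below the treated libraries, the log2 fold change became 0.72 ± 0.21 (SE), and Ehd2 joined Cav3 among 2 members past the threshold in the higher direction, where 9.89% of 7939 genes were. In that fit 1 member, Cav1, was lower, against 16.5% of genes, and 26.3% of genes were called in either direction. Ehd2 has 1 segment, at the distal end, so the fit on segments within 500 bp of that end used the same counts. With its scaling estimated anew, that fit gave −0.06 on the log2 scale with all libraries.

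Pacsin3, the muscle-rich F-BAR protein of the caveolar neck, was at 355, 433, 269, 344 and 352 CPM in CTRL and at 373, 422, 335, 378 and 440 CPM with the ASO. Its groups overlapped with means of 351 ± 58.1 and 390 ± 41.8 CPM (SD, n = 5 each), or 0.15 ± 0.15 (SE) on the log2 scale. All its counts lay on chr2:91094300-91094704, which stops 320 bp short of the distal end, and the 4 segments at the end overlap each other fully and had 0 counts.

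Levels between members were compared per kb of counted sequence outside overlaps. In CTRL the order was Cavin1 at 1152 ± 611 CPM per kb, Pacsin3 at 996 ± 165, Cav1 at 849 ± 788, Cavin4 at 837 ± 164, Cav3 at 455 ± 98.8, Cavin2 at 311 ± 140, Ehd2 at 168 ± 115, Cav2 at 161 ± 155 and Cavin3 at 10.7 ± 7.88 (SD, n = 5). Neighbors in this order overlapped over the CTRL libraries, except that the highest Cav3 value, 559, was under the lowest of Cavin4, 587, and the highest of Cavin3, 22.7, under the lowest of Cav2, 76.8. With the ASO the order was Cavin1 at 1259 ± 265, Pacsin3 at 1107 ± 119, Cav3 at 1061 ± 122, Cavin4 at 834 ± 120, Cavin2 at 345 ± 95.9, Cav1 at 208 ± 85.6, Ehd2 at 192 ± 55.8, Cav2 at 59.8 ± 20.9 and Cavin3 at 7.42 ± 4.80. Here the neighbors without overlap were Cavin4 and Cavin2, Ehd2 and Cav2, and Cav2 and Cavin3. Cav1 stood in the third place in CTRL and in the sixth with the ASO, and Cav3 in the fifth and in the third. The CTRL place of Cav1 rests on replicate 3, at 2238 CPM per kb, without which its mean is below that of Cavin4. The counted length of Cav2 includes a segment of 500 bp with 12 counts, which lowers its level per kb.

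The balance of the 2 main caveolins was taken within each library, so that scaling between libraries drops out. The log2 ratio of Cav3 to Cav1 counts was −1.15, −1.18, −4.52, −2.13 and −2.54 in CTRL and 0.22, 0.70, 1.03, 0.03 and 1.47 with the ASO. Cav1 thus exceeded Cav3 in every control and Cav3 exceeded Cav1 in every treated library, in counts not corrected for length. The means were −2.30 ± 1.38 and 0.69 ± 0.59 (SD, n = 5 each), which differ by 2.99, or by 2.44 without CTRL replicate 3. On segments within 500 bp of the distal end the difference was 2.10, or 1.57 without CTRL replicate 3, again without overlap. There Cav3 exceeded Cav1 also in CTRL replicates 1 and 2, at log2 ratios of 0.61 and 0.31. In counts, Cav1 was thus the larger in every control only with its upstream segments. The counted lengths differ, 1321 bp for Cav1 and 394 bp for Cav3, so the sign of these ratios does not rank the 2 genes. Per kb the CTRL ranges overlapped, with the lowest Cav1 value at 366 and the highest Cav3 value at 559 CPM per kb.

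The other ratios overlapped between groups. Cav3 to Cavin1 differed by 1.01 on the log2 scale, 0.63 without CTRL replicate 3, and the overlap was between CTRL replicate 1 at −0.84 and ASO replicate 4 at −0.89. Cavin4 to Cavin1, the muscle-restricted against the general cavin, differed by −0.23, and by −0.62 without CTRL replicate 3, which was lowest at −1.91. Cav2 to Cav1 differed by 0.60, and Cavin3 to Cavin1 by −0.72 on low counts.

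**Figure D5:**
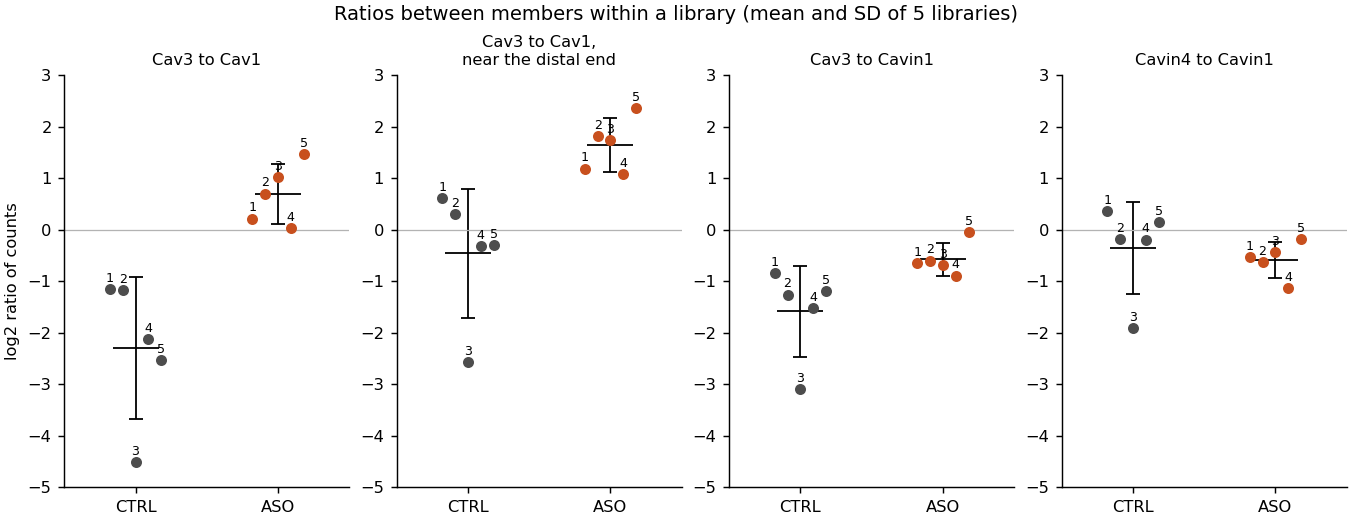
Log2 ratios of counts within a library (vertical axis) for Cav3 to Cav1 with all segments, Cav3 to Cav1 near the distal end, Cav3 to Cavin1 and Cavin4 to Cavin1, with points numbered by replicate and bars for the mean and SD of 5 libraries per group. Cav3 to Cav1 does not overlap between CTRL and ASO, with all segments or near the distal end, whereas the ratios to Cavin1 overlap and CTRL replicate 3 is the lowest point of each of these panels.

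Within the groups, members varied together in sets that rest partly on CTRL replicate 3. After subtraction of the group mean from log2 CPM, Pearson's r over the 10 libraries was 0.96 for Cav2 and Ehd2, 0.93 for Cavin1 and Ehd2 and 0.90 for Cav1 and Cav2, and over the 9 libraries without CTRL replicate 3 it was 0.86, 0.76 and 0.68. Cav3 and Cavin4 were at 0.81, or 0.62 without it, and Cav1 and Cav3 at −0.72, or −0.40. Cav3 and Cavin2 went from −0.01 to 0.77 when it was left out. These correlations share libraries and depth and are given as a description.

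Outside the members, the tested genes with the most similar variation within groups were chosen by the same r. For Cav1 they were Cfl1, the actin-severing cofilin, at 0.985, Naaa, a lysosomal amidase, at 0.977 and Por, the reductase of microsomal cytochrome P450 enzymes, at 0.975, or 0.955, 0.941 and 0.946 over 9 libraries. For Cav3 they were 2310009B15Rik at 0.962, Qrsl1, which serves mitochondrial glutaminyl-tRNA synthesis, at 0.953 and Nat10, an RNA acetyltransferase, at 0.945, or 0.931, 0.923 and 0.923. For Cavin4 they were Abcb4, a phospholipid transporter, at 0.951, Mrpl21, a mitochondrial ribosomal protein, at 0.929 and Zfp68, a zinc finger protein, at 0.926, or 0.902, 0.862 and 0.833.

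The families from which EHD2 and PACSIN3 come, with the flotillins that mark other membrane domains, were tested as a list chosen by family membership, with earlier results of these data known. Of its 7 genes, 5 were tested, 1 fell and 0 rose, where 17.4% of all genes tested were lower and 11.8% higher, by edgeR's quasi-likelihood test at a Benjamini-Hochberg adjusted p of 0.05, with 1 higher at an unadjusted p under 0.05 (Ehd3), and DESeq2 and limma-voom also called 0 higher. The median log2 fold change was 0.28. Pacsin2, the broadly expressed relative of Pacsin3, was at 59.4, 39.2, 61.3, 80.8 and 63.5 CPM in CTRL and at 17.9, 31.9, 9.30, 23.0 and 13.7 CPM with the ASO. It fell by 1.66 on the log2 scale (standard error 0.29, adjusted p = 0.0016 from edgeR), and 99.8% of its counts lay at least 1000 bp before the distal end, so near the end it had too few to test. Segments that far upstream were mostly lower over all tested genes. Their median log2 ratios were −0.71 from 1000 to below 2000 bp and −1.07 at 2000 bp or more, with lower quartiles of −1.39 and −2.04. Ehd3, a recycling ATPase, had a log2 fold change of 0.70 (adjusted p = 0.062 from edgeR). Flot1 was at 0.27 (adjusted p = 0.15 from edgeR) with all segments, and at 0.75 (standard error 0.15, adjusted p = 0.0099 from edgeR) on those within 500 bp of the end. Pacsin1 was listed at 0 and Flot2 had 15 counts in all.

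Proteins known to bind caveolin-3 or to sit in caveolae at the sarcolemma formed a second list of 11 genes, of which 7 were tested, 1 rose and 2 fell by edgeR, with a median log2 fold change of −0.20. Over all genes tested, 11.8% were higher, 17.4% lower and 29.2% called in either direction. Trim72, the membrane-repair protein MG53, was at 615, 629, 419, 613 and 496 CPM in CTRL and at 341, 374, 273, 434 and 262 CPM with the ASO. Only ASO replicate 4 reached into the range of CTRL, just above its replicate 3. The gene fell by 0.72 on the log2 scale (standard error 0.18, adjusted p = 0.0096 from edgeR), and its counts all lay less than 1000 bp from the distal end. The fit on segments within 500 bp of the end, with its scaling estimated anew, put it at −0.95 (adjusted p = 0.0062 from edgeR). That value comes from the same libraries and is not a separate measurement. Trim72 and Cav3 thus differed from control in opposite directions, both on segments near the gene end.

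Cd36, the fatty acid translocase, was at 782, 356, 708, 410 and 370 CPM in CTRL and at 235, 205, 351, 407 and 232 CPM with the ASO. It fell by 0.88 on the log2 scale (standard error 0.27, adjusted p = 0.029 from edgeR). That call was lost without ASO replicate 1, 2 or 5 or CTRL replicate 1 or 3, with adjusted p-values up to 0.077 from edgeR, and on segments near the distal end (−0.69, adjusted p = 0.091 from edgeR). Insr, the insulin receptor, rose by 0.48 (standard error 0.16, adjusted p = 0.039 from edgeR), from 103 ± 20.6 to 143 ± 18.5 CPM (SD, n = 5 each), with all its counts at least 1000 bp upstream. It was lost without ASO replicate 2, 3 or 5 or CTRL replicate 3, 4 or 5, with adjusted p-values up to 0.095 from edgeR. Nos1, Dag1, Adcy6 and Slc8a1 did not pass the test, at log2 fold changes of −0.03, 0.16, −0.59 and −0.20. Dysf and Pfkm were listed at 0, with at most 4 bp outside overlaps, and Trpc1 and Src were below the filter.

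Of 8 genes of the transverse tubule and the triad, the membrane junction that couples excitation to calcium release, 2 were tested, 1 fell and 0 rose by edgeR's quasi-likelihood test, with 0 higher at an unadjusted p under 0.05 and 0 called higher by DESeq2 or limma-voom. With 2 genes tested, this count says little beside the 17.4% lower and 11.8% higher over all genes. Dnm2, the dynamin that severs membrane necks, fell by 2.11 on the log2 scale (standard error 0.39, adjusted p = 0.0022 from edgeR). It was at 14.1, 18.7, 29.2, 37.2 and 54.5 CPM in CTRL and at 10.6, 9.35, 3.81, 5.84 and 5.66 CPM with the ASO, without overlap, and 86.4% of its counts lay at least 1000 bp before the distal end. Over all tested genes, segments from 1000 to below 2000 bp had a median log2 ratio of −0.71 and a lower quartile of −1.39. For segments at 2000 bp or more these were −1.07 and −2.04. Jph1, junctophilin 1, had a log2 fold change of 0.52 (adjusted p = 0.13 from edgeR). Bin1, Mtm1, Jph2, Ryr1 and Stac3 were listed at 0 in all libraries and Cacna1s had 10 counts, so most of this membrane system could not be read from the table.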

How the data were processed

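Gastrocnemius (GAS) RNA of DIO mice was sequenced as stranded mRNA libraries, 5 with the anti-miR-22 ASO and 5 CTRL, and the table's 4 further columns of single samples were left aside. The authors deposited counts, unnormalized: reads were trimmed with fastp, aligned to GRCm39 with STAR, and read pairs counted by featureCounts over the final 500 bp of Gencode M25 3′UTRs, with no strand option stated. Genes that overlap on opposite strands are therefore uncertain. Stretches covered by more than 1 segment drew few counts or none. Segment identifiers were matched to GENCODE M39 (52361 of 52423; the others hold 0.0197% of counts), and segments were summed per gene. All coordinates are 1-based on GRCm39.

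Genes passing filterByExpr entered edgeR (version 4.0.16, under R 4.3.3; TMM, quasi-likelihood, Benjamini-Hochberg adjustment over 7813 genes, threshold 0.05). CPM use TMM-scaled library sizes, and errors on levels, shares and ratios are SDs. Errors on log2 fold changes are SEs, taken as the absolute fold change divided by the square root of the quasi-likelihood F statistic. Totals of 1606909 to 2632560 counts limit precision for genes of few counts such as Cavin3, and intervals cover counting error only. Alternatives were RLE size factors, total counts, upper quartile, DESeq2 1.42.0, limma-voom (limma 3.58.1), no filter, at least 10 counts in every library, the replicate number as a block, leaving out each library, the most distal segment only, and drawing each library down to the smallest total. Segments within 500 bp of the distal end were an alternative added after seeing the data. The fits on fewer segments estimated the library scaling anew from their own genes. Marker sums were compared by two-sided exact permutation tests on log2 summed CPM. Of the steps, only the main edgeR fit was tried on simulated counts. The other steps ran in Python 3.11.15 (pandas 2.3.3, numpy 2.4.6, matplotlib 3.10.9, scipy 1.17.1).

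The members, the other gene lists and the marker lists were chosen with earlier results of these data known. Named genes are all 9 members, the genes past the threshold in each list, the genes at 0 and the highest gene of each marker list, and the 3 genes most like Cav1, Cav3 and Cavin4 by r within groups. Ehd3, Flot1, Jph1 and the remaining list genes were named after their values were seen. Replicate numbers did not pair the libraries.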

Additional observations from a re-analysis of the deposited data

Results flagged for a closer look

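For the members, their ratios and the marker sums, 56 groups of 5 libraries were checked for a library whose gap to its nearest neighbor, as a share of the range of its group, exceeded the critical value of Dixon's test. Chance gives about 1 in 20 for a single group, and 8 groups exceeded the critical value, 7 of them through CTRL replicate 3. The groups share libraries and are not independent, so the count of 8 cannot be tested against that rate. That library was far above the other controls for Cav1 (0.835 of the range), Cav2 (0.918), Cavin1 (0.781), Ehd2 (0.929) and the adipocyte marker sum (0.821). It was far below them for the log2 ratio of Cavin4 to Cavin1 (0.754) and for that of Cav3 to Cav1 near the distal end (0.711). The remaining case was the smooth muscle and pericyte sum, in which CTRL replicate 1 was far above the other controls (0.744). Why these libraries stood apart was not tested.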

How the results depend on the processing

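Counts of calls depended most on which segments were used. On the most distal segment of each gene 232 genes were higher and 335 lower, and on segments within 500 bp of the end (added after seeing the data) 334 and 465, in place of 920 and 1363; fewer genes were tested there. In both, 0 members, 0 genes of the EHD, PACSIN and flotillin list and 0 of the T-tubule list were lower, 0 sarcolemma partners were higher and 1 was lower, and 1 gene of the former list, Flot1, was higher. Several of these counts of 0 were fixed by which genes could be tested. Pacsin2, Dnm2 and Insr were tested in neither fit, and Cav1 was not tested on the most distal segment. Near the end Jph1 was not tested either, so no gene of the T-tubule list was. With total counts, 528 genes were higher. DESeq2, which gave no p for Cav2, and limma-voom each called 1 member lower, Cav1. Upper quartile scaling called 1 gene of the EHD, PACSIN and flotillin list higher. The sarcolemma count of 1 higher, Insr, became 0 with total counts, without the filter and after drawing down. The filter of 10 counts in every library left 0 T-tubule genes lower, since Dnm2 was not tested. For these changes beyond the tested sets, the cause was not tested. As a mean of log2(CPM + 1), the skeletal muscle difference was 0.3855.

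Leaving out each library gave 692 to 1021 genes higher and 1127 to 1369 lower, 1 to 2 members higher and 1 to 2 lower, 0 to 1 higher in each of the other 3 lists, and 1 to 2 sarcolemma partners lower. Members lower was 1 without any ASO replicate or without CTRL replicate 3, as Cav2 was lost. The EHD, PACSIN and flotillin list gained 1 without ASO replicate 2 or 4, and the T-tubule list gained Jph1 without CTRL replicate 2. The skeletal muscle difference ran from 0.59 to 0.83 and was past the threshold only without ASO replicate 4, the other 9 giving an adjusted p of 0.095 (exact permutation test), and the fibroblast difference from −1.17 to −0.49, past the threshold without ASO replicate 4. The adipocyte difference, near 0, changed sign with upper quartile scaling (0.0083) and when libraries were left out (−1.46 to 0.82).

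Same-numbered libraries deviated together with r from −0.43 to 0.16, so the numbers do not pair them. With the replicate number as a block, 662 genes were higher and 1172 lower, members stayed at 1 higher and 2 lower, and sarcolemma partners higher went to 0.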
